A study of Quercus ilex with 12 samples.

Results

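Leaves of *Quercus ilex* (holm oak) seedlings kept without irrigation were compared with leaves of well-watered seedlings at the first of 2 samplings. The comparison holds 6 of the 12 RNA-seq libraries of the study, 3 drought and 3 control, chosen by their labels for stress and sampling. Each library is labelled a biological replicate of leaf tissue from seedlings 6 months old. No genetic change or other agent is named in the labels, and the number of seedlings behind a library was not stated. The sample labels place this sampling at 20 days, whereas the series description names 17 and 24 days for its samplings. The other 6 libraries, 3 drought and 3 control, were of the second sampling (25 days in the labels). They entered the low-count filter, the scaling and the shared estimate of the spread. Beyond that they played no part in choosing contigs. Expression was given for 47568 assembled contigs of 200 to 15009 bases. Of these, 33602 passed the filter on low counts and were tested, and 13966 were not. The contigs carry identifiers without gene names or sequences, so neither the leaf label nor the stress label could be checked against marker genes, and results are given by abundance, length and size of the effect.

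Holm oak is an evergreen Mediterranean tree known for its tolerance of summer drought. Leaves that lose water close their stomata, a response controlled by the hormone abscisic acid, and photosynthesis drops as a result. Well-known groups of drought transcripts in plants are those of dehydrins and other late embryogenesis abundant proteins, heat shock proteins and enzymes that make osmolytes, while transcripts of photosynthesis and cell growth are often lower. None of these groups could be followed here, because the contigs are unnamed. In whole leaves, fewer cells of a type and less RNA per cell cannot be told apart.

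The depth was 19794741 to 33384307 estimated counts (median 22016871) in the drought libraries and 22718193 to 25724896 (median 24222599) in the controls, and the contigs tested held 99.7% to 99.8% of them. An estimated count is the number of reads that the program RSEM assigned to a contig. Reads matching several contigs were divided among them, and 90.5% of the contigs tested had a fractional count in at least 1 of the 6 libraries, so values of alleles and close paralogs depend on each other. The library of control replicate 2 stood apart from its group. Over the contigs tested its log2 values correlated with 0.866 at best with the other controls, but with 0.896 with drought replicate 1. Each of the other 5 libraries correlated best within its own group, by 0.018 to 0.056 more than with the other group. No batch is named in the labels. The main counts below are therefore also given without this library. Whether the library is mislabelled or came from a seedling in another state was not tested.

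Drought effects were mostly small at this sampling and no single contig passed the test by edgeR. Fold changes were estimated with edgeR, which scales the libraries by TMM (a size factor that leaves out the most extreme contigs) and shares information on the spread between contigs. The log2 fold change, drought over control, had a median of -0.04, with 10% of the contigs below -1.60 and 10% above 1.10. It was smaller than 2-fold in either direction for 70.7% of the contigs. The median size of the change, without its sign, was 0.59. CPM is the count scaled to a fixed library sum, and TPM is scaled likewise after division by contig length. The median standard deviation of log2(CPM + 0.5) within a group was 0.40 in drought and 0.48 in control leaves (n = 3 each). It describes single libraries on another scale than the fold change of group means, so the 0.59 cannot be read against it directly. The controls were the more spread group for 58.3% of the contigs. With replicate 2 left out of each group the median standard deviations were 0.31 in drought and 0.33 in control leaves (n = 2 each). Some of this fall is built in, because the median standard deviation of 2 libraries tends to be lower than that of 3.

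At an adjusted p under 0.05, none of the 33602 contigs was called by edgeR (0 contigs, 0.0%). An unadjusted p under 0.05 was reached by 4442 contigs (13.2%). Among these, 1793 had more counts under drought (5.34% of those tested) and 2649 had fewer (7.88%). Other tools called more of the 33602 contigs: DESeq2 called 1312, 515 higher and 797 lower. On log2(TPM + 1) limma-trend called 25, 14 higher and 11 lower. Of the 1312 contigs called by DESeq2, 1156 (88.1%) had all drought libraries on one side of all controls, and their median log2 fold change was 2.58 in size. All 25 called by limma-trend were of this kind, with a median of 3.23. Over all contigs tested the share without overlap was 22.4%. The calls and the overlap rest on the same libraries, so these shares add no support to the calls. Without control replicate 2, the number was 11 with edgeR (4 higher, 7 lower) and 1929 with DESeq2. The labels call the libraries biological replicates without saying whether each came from its own seedlings. The edgeR p-values judge a difference against the spread between libraries, estimated over all 12. This spread need not be that between seedlings.

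Large differences were more often toward lower values in drought leaves, but this balance rested on control replicate 2. Under drought 3954 contigs (11.8%) were at least 2-fold higher and 5892 (17.5%) at least 2-fold lower. The excess of lower contigs widened with the size of the change. A 4-fold difference was reached by 974 contigs (2.90%) that were higher and 2403 (7.15%) that were lower, and an 8-fold difference by 382 (1.14%) and 1229 (3.66%). Contigs that were higher thus made up 40.2% of those past 2-fold. Without control replicate 2 their share was 52.5%, with 6256 contigs at least 2-fold higher and 5650 lower, so the excess of lower contigs was no longer seen at this limit. At the 8-fold limit the numbers were then 1161 higher and 1197 lower. Of the contigs past 2-fold, 48.7% of the higher and 38.4% of the lower had no overlap between the groups. Over all contigs tested the shares in these directions were 11.6% and 10.8%. The fold change and the overlap come from the same libraries, so a larger share past 2-fold is built in.

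The groups did not overlap for 7529 contigs (22.4%). In 3897 of them (11.6%) the 3 drought libraries all lay above the 3 controls, called apart higher from here on, and in 3632 (10.8%) all lay below, called apart lower. These counts are in TMM-scaled CPM, where the 2 directions were nearly balanced. On other scales they were not. In TPM as deposited, 2858 contigs (8.51%) were apart higher and 4809 (14.3%) apart lower. In CPM by the plain library total the numbers were 3117 (9.28%) and 4577 (13.6%). The share of apart contigs that were higher was thus 51.8% with TMM, 37.3% in TPM and 40.5% in plain CPM. The median log2 fold change of all contigs was -0.04 with TMM, -0.02 with upper-quartile and -0.05 with RLE size factors, and -0.09 on log2(TPM + 1).

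**Figure D1:**
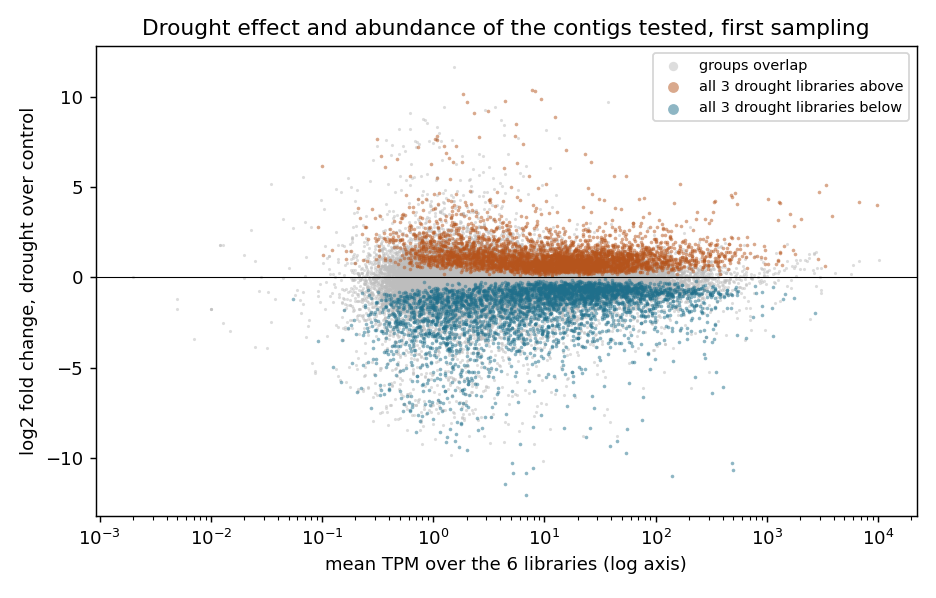
Drought effect against abundance for the contigs tested at the first sampling. Each point is a contig, the x axis (log) is its mean TPM over the 6 libraries, the y axis its log2 fold change (drought over control, edgeR), and the colours mark the 3897 contigs apart higher (brown) and the 3632 apart lower (blue). A further 6 contigs with a mean TPM of 0 are not drawn. More contigs lie beyond an 8-fold difference below the zero line (1229) than above it (382).

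Most of these separations were narrow. The gap, taken as the lowest library of the higher group over the highest library of the lower group (CPM + 0.5), had a median of 1.20 among contigs apart higher and 1.19 among those apart lower. It reached 1.5 times in 766 contigs apart higher (2.28% of those tested) and 744 apart lower (2.21%). Of the 33602 tested, 232 and 309 reached 2 times, 40 and 44 reached 4 times, and 13 and 8 reached 8 times. The log2 fold changes of the separated contigs had a median of 0.99 (quartiles 0.68 and 1.45) for the higher and -1.28 (quartiles -2.34 and -0.78) for the lower group. An unadjusted edgeR p under 0.05 was reached by 39.7% of the contigs apart higher, 50.3% of those apart lower and 4.10% of the rest. Both measures use the same libraries, so these shares describe the contigs and add no support.

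How often a single library decided about an overlap differed between libraries. With control replicate 2 left out, 2856 further contigs were apart higher and 3111 further ones apart lower, giving 6753 (20.1%) and 6743 (20.1%). Leaving out drought replicate 1 gave 5573 apart lower and control replicate 1 gave 5631, against 3632. For each of the other 5 libraries the gain was 786 to 1682 contigs apart higher and 1182 to 1999 apart lower. Some gain is built in, because 3 against 2 libraries overlap less often than 3 against 3. Control replicate 2 was the library farthest from the middle one of its group for 41.5% of the contigs. The shares were 28.0% and 30.6% for the other controls and 30.1% to 35.7% for the drought libraries.

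Abundant contigs were separated more often than rare ones at the first sampling. The contigs were divided into 10 classes of equal size (deciles) by their mean TPM over the 6 libraries. In the lowest decile (under 0.745 TPM) 4.02% of the contigs were apart higher and 9.01% apart lower. In the highest decile (55.5 TPM or more) the shares were 19.3% and 16.2%, against 11.6% and 10.8% over all contigs tested. The size of the effect went the other way at first. The median size of the log2 fold change was 0.89 in the lowest decile, reached its minimum of 0.43 in the 8th (16.7 to 27.7 TPM), and was 0.60 in the highest. The rarest decile thus combined the largest median size of the log2 fold change with the lowest share of contigs apart higher. Replicates were also more spread among rarer contigs. Below the median abundance the median standard deviation of log2(CPM + 0.5) was 0.47 in drought and 0.55 in control leaves. Above it the values were 0.34 and 0.42. In TPM the lower direction was the more frequent one in each decile, with 2.80% higher and 9.28% lower in the lowest and 15.8% and 23.6% in the highest. Without control replicate 2 the highest decile held 25.9% apart higher and 32.2% apart lower. At the second sampling (TMM-scaled CPM) 5.47% of the lowest decile were apart higher, 15.3% of the 7th and of the 8th, and 12.5% of the highest. Apart lower there were 12.8% of the lowest, 9.64% of the 2nd and 15.2% of the highest decile.

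**Figure D2:**
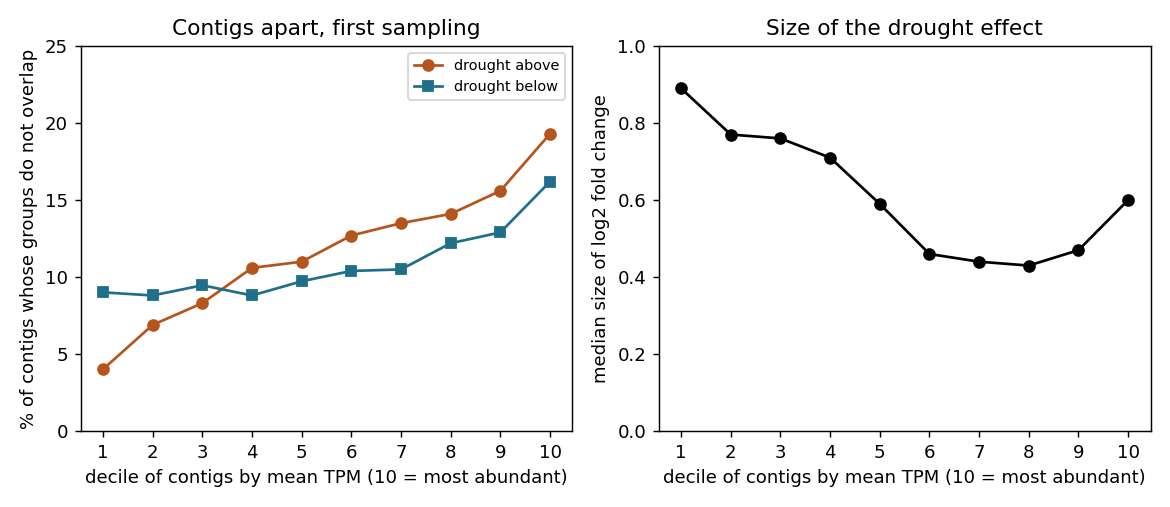
Separation and effect size by abundance at the first sampling. Left, the percentage of contigs in each decile of mean TPM (1 rarest, 10 most abundant) whose 3 drought libraries all lie above (circles) or all below (squares) the controls in TMM-scaled CPM; right, the median size of the log2 fold change. Separation is most frequent in the highest decile (19.3% and 16.2%), while the effect size is lowest in the 8th (0.43).

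The 100 most abundant contigs were ranked by the mean TPM over the 6 libraries and all had 898 TPM or more. A contig can enter this set through high values in drought or in control leaves alone, so its counts are a description. Of these 100, 28 were apart higher and 10 apart lower, against 11.6% and 10.8% of all contigs tested. At least 2-fold higher were 27 and at least 2-fold lower 11, against 11.8% and 17.5% of all. Their median log2 fold change was 0.51 (-0.04 over all contigs tested). The 100 most abundant contigs of each library held 19.8%, 18.3% and 20.0% of the counts in drought replicates 1, 2 and 3, against 16.4%, 15.6% and 15.0% in the controls. This share was 19.4 ± 0.929% in drought and 15.7 ± 0.702% in control leaves (SD, n = 3 each), higher in 3 of 3 drought libraries. The exact permutation test gave a two-sided p of 0.1, the lowest value that 3 against 3 libraries can reach, and 0.4 after adjustment over 4 such library measures. At the second sampling the same share did not separate the groups (16.9 ± 1.59% in drought, 18.2 ± 3.78% in controls, exact permutation p = 0.8).

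The other 3 library measures overlapped between the groups. At least 1 TPM was reached by 27781, 28767 and 25663 contigs in the drought libraries and by 27981, 31009 and 27020 in the controls, with the highest number in control replicate 2. The mean contig length weighted by TPM was 1016, 1056 and 999 bases in drought and 1052, 1032 and 1031 bases in controls. Contigs with a fractional count made up 50.8% to 58.0% of the contigs listed in a drought library and 50.1% to 56.3% in a control. The exact permutation p was 0.5, 0.5 and 0.4 for these measures, and 0.5 for each after adjustment.

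Contigs apart higher and apart lower were 11.6% and 10.8% of the contigs tested, and their share of the TPM differed between the groups. Contigs apart higher held 26.8%, 29.6% and 32.4% of the TPM in the drought libraries, against 11.9%, 14.5% and 8.34% in the controls. Contigs apart lower held 8.52%, 7.04% and 6.86% in the drought libraries and 17.9%, 15.4% and 23.2% in the controls. These levels follow from the way the contigs were chosen and carry no test. The difference was concentrated in few contigs on the higher side. The mean difference, drought minus control, was 180398 TPM summed over the contigs apart higher, and 10 contigs gave 33.2% of it and 100 gave 61.4%. On the lower side it was -113599 TPM, of which 10 contigs gave 12.4% and 100 gave 40.4%.

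The 10 contigs with the largest difference in TPM toward drought had lengths of 277 to 2163 bases with a median of 598, whereas the contigs tested had a median of 1103 bases. The median was also below 1103 bases for the 10 with the largest difference toward control (800 bases) and for the 100 most abundant (718). It was 880 bases in the highest decile of abundance, but 1362, 1282 and 1143 bases in the 7th, 8th and 9th deciles. The mean TPM of the 10 contigs toward drought was 6.27 to 30.3 times as high in drought as in control leaves. Summed, they held 43521, 53073 and 97555 TPM in drought replicates 1, 2 and 3, against 2690, 8190 and 3407 TPM in the controls. Drought replicate 3 had the highest value for 6 of the 10. The 10 contigs were ranked without the levels of the second sampling. In that sampling they held 28209, 52580 and 5383 TPM in drought and 3928, 10705 and 3975 TPM in control leaves. Drought replicates 1 and 2 thus lay above all controls of that sampling, and drought replicate 3 below control replicate 2.

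The separated contigs also differed in length. Contigs apart higher had a median length of 1340 bases (quartiles 805 and 2127) and those apart lower 1032 bases (quartiles 672 and 1557), against 1103 bases (695 and 1719) for all contigs tested. In the decile of the shortest contigs (200 to 470 bases) 8.89% were apart higher and 11.5% apart lower. In the decile of the longest (2461 to 15009 bases) 20.2% were apart higher and 6.25% apart lower, 678 against 210 contigs. Up to 1103 bases, the first 5 deciles, the share apart higher stayed between 8.76% and 9.62%, and the climb was found in the longer classes. The median log2 fold change was -0.15 in the shortest decile and 0.20 in the longest, a difference of 0.35. Contigs apart higher had a smaller effect in the longest decile (median log2 fold change 0.79) than in the shortest (1.27).

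**Figure D3:**
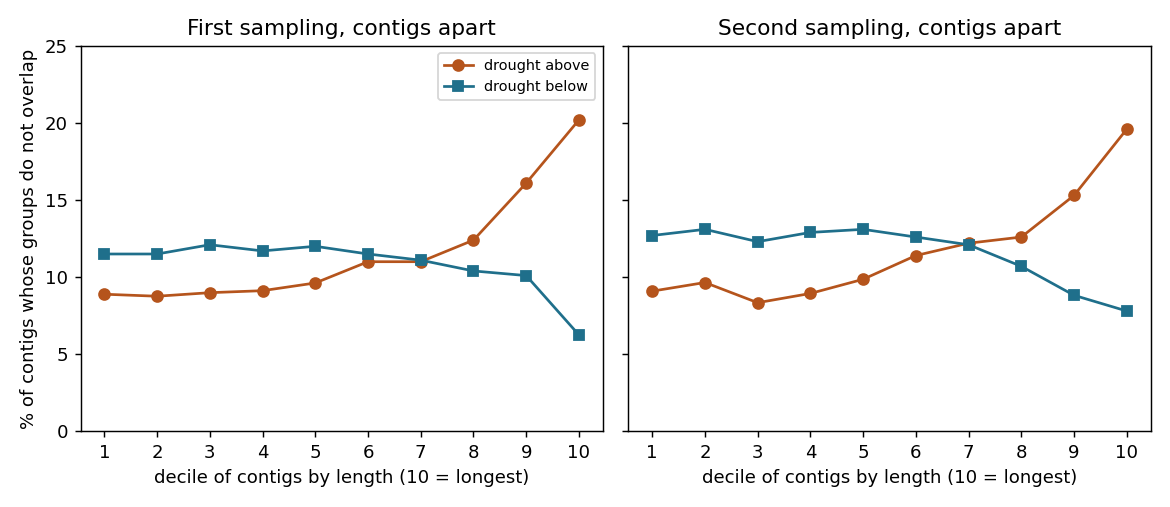
Separation by contig length. The percentage of contigs in each length decile (1 shortest, 10 longest) whose 3 drought libraries all lie above (circles) or all below (squares) the 3 controls, in TMM-scaled CPM, at the first (left) and second (right) sampling. In the longest decile 20.2% are apart higher and 6.25% apart lower at the first sampling, and 19.6% and 7.80% at the second.

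The excess of higher contigs in the longest decile was also seen in TPM and without control replicate 2. In TPM, where fewer contigs were apart higher altogether, the shares in the longest decile were 13.4% higher and 8.93% lower, although in the shorter 9 deciles the lower direction prevailed (7.28% and 14.5% in the shortest). Without control replicate 2 the longest decile held 29.3% apart higher and 14.2% apart lower. The difference of median log2 fold change between the longest and shortest decile ran from 0.26 to 0.43 over all 17 alternatives. The longest contigs were also the more often apart higher at like abundance. Among contigs under 3 TPM, 15.1% of the longest and 5.58% of the shortest decile were apart higher, from 3 to 20 TPM 21.5% and 8.38%, and at 20 TPM or more 24.7% and 12.5%. The shares apart lower were close under 3 TPM, with 7.23% of the longest and 7.53% of the shortest contigs. They were 6.2% and 9.26% from 3 to 20 TPM, and 4.71% and 17.3% at 20 TPM or more. TPM is scaled by length, so at a like TPM the longer contigs hold more counts.

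Each library was also set against the mean of all 6. The median deviation of the longest decile minus that of the shortest, in log2 units, was 0.014, 0.255 and 0.218 in drought replicates 1, 2 and 3, and -0.047, -0.156 and -0.182 in the controls. The groups did not overlap, but drought replicate 1 lay close to the controls. The means were 0.162 ± 0.130 in drought and -0.128 ± 0.0716 in control leaves (SD, n = 3 each), with a two-sided exact permutation p of 0.1, the lowest possible. The second sampling gave 0.218, 0.164 and 0.059 in drought and -0.088, -0.145 and -0.070 in control leaves, again without overlap and with an exact permutation p of 0.1. In that sampling 19.6% of the longest contigs were apart higher and 7.80% apart lower. The effect of fragment size on such a length trend was not tested. The constant that RSEM subtracts from the contig length, which follows the fragment length of a library, was 132.38, 132.54 and 135.38 bases in drought and 132.26, 132.49 and 134.23 bases in control leaves, with overlapping groups. No measure of RNA integrity was analysed here.

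Most contigs separated at the first sampling lay on the same side at the second. The second-sampling libraries entered the choice only through the low-count filter and the scaling. The contigs apart higher had a median log2 fold change of 0.65 at the second sampling (0.99 at the first), and 78.2% of them were above 0, against 51.3% of all contigs tested. Those apart lower had a median of -0.56 (-1.28 at the first), and 69.5% were below 0, against 48.6% of all. Of the 3897 contigs apart higher, 959 were apart higher again, which is 24.6% of them and 24.4% of the second sampling's own list, where 11.7% of all contigs tested are apart higher. Of the 3632 apart lower, 893 were apart lower again (24.6% of them, 22.9% of the second list, 11.6% of all contigs tested). The opposite separation was found for 69 (1.77%) and 115 (3.17%). The wider gaps at the first sampling gave larger values at the second. Of 232 contigs apart higher by a gap of 2 times or more, 90.5% were above 0 at the second sampling with a median of 1.39, and of 309 such contigs apart lower 79.0% were below 0 with a median of -1.20.

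The second-sampling libraries did not follow these lists equally. Contigs apart higher held 22.3%, 27.4% and 11.6% of the TPM in its drought replicates 1, 2 and 3, against 7.36%, 15.0% and 9.42% in its controls. Contigs apart lower held 10.5%, 8.72% and 18.0% in the drought libraries and 22.1%, 15.0% and 20.7% in the controls. Drought replicate 3 of that sampling thus lay within the range of the controls for both lists. Relative to the mean of the second-sampling controls the contigs apart higher had a median log2 difference of 0.661, 0.831 and 0.175 in drought replicates 1, 2 and 3, and the contigs apart lower -0.663, -0.742 and -0.118. The medians for the lists were 0.78 and -0.97 without this library, and without it and control replicate 2 of that sampling they were 0.86 and -0.71. With the contigs chosen in TPM they were 0.73 and -0.19. Without drought replicate 3 or control replicate 2 of the first sampling the lower list had -0.35 and -0.33. Over 33602 contigs the test of the difference between the drought effects of the samplings called 0 (0.0%) with edgeR, with 3081 (9.17%) at an unadjusted p under 0.05, and 428 with DESeq2.

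**Figure D4:**
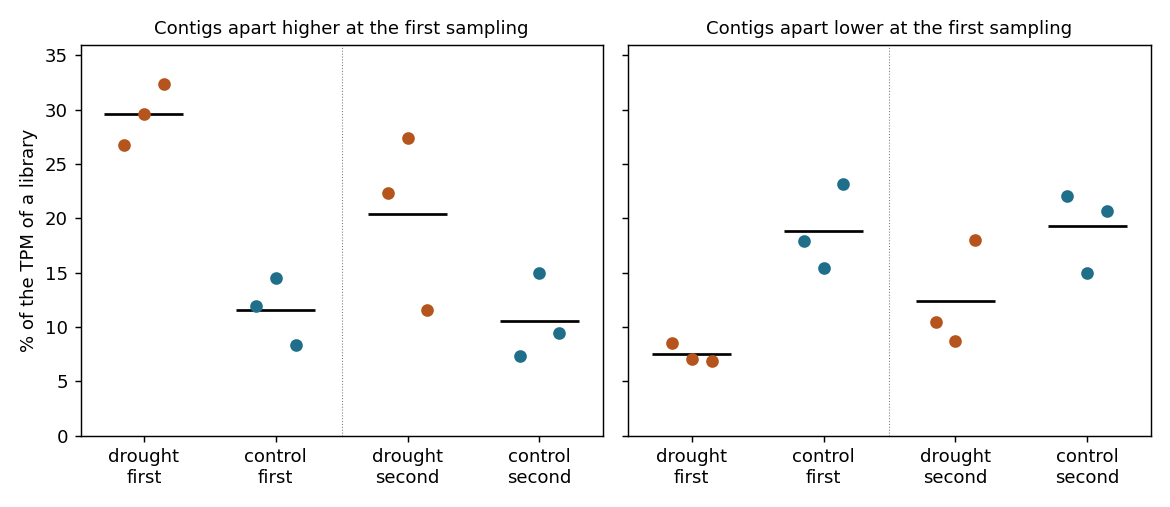
Share of the TPM of each library held by the 3897 contigs apart higher (left) and the 3632 contigs apart lower (right) at the first sampling. Points are the 12 libraries by group and sampling, replicates 1 to 3 from left to right, and bars are group means. The first-sampling groups are apart by the choice of the contigs; at the second sampling drought replicates 1 and 2 lie above all controls on the left (22.3% and 27.4%) and replicate 3 lies among them (11.6%).

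Few contigs were at 0 counts throughout one group and present throughout the other. Among the 47568 contigs listed, 5 of 371 bases or more had 0 counts in all controls and at least 10 in every drought library. In 8 contigs all drought libraries had 0 and every control at least 10. Of these, 4 and 8 were among the contigs tested. Of the 5, 1 had 10 counts or more in each drought library of the second sampling, and 2 had 0 counts in all of these. In all second-sampling controls, 0 of the 5 had 0 counts. Of the 8, 1 had 10 or more in each second-sampling control, and 1 had 0 counts in all of these controls. Another, contig-820000022, had 0 in each second-sampling drought library. The full pattern was thus not seen again in any of them. At this depth a total of 0 counts over the drought group allows a level of up to 0.0392 CPM (3 counts over the group; counting error only).

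The contigs described singly are, among the contigs apart, those with the widest gap (at a mean of 1 CPM or more) and those with the highest mean TPM past a 2-fold change, 1 of each in either direction. contig-4054000021 (887 bases) had the widest gap upward. Its estimated counts were 1235, 519 and 1137 in the drought libraries and 2, 21 and 4 in the controls, or 45.6 ± 17.7 TPM in drought and 0.443 ± 0.510 TPM in control leaves (SD, n = 3 each). Its lowest drought library lay 19.8 times above its highest control (CPM + 0.5). The log2 fold change was 6.82 (SE 1.45), and edgeR gave an adjusted p of 0.242 (1.5e-07 to 0.66 over the alternatives, with the 2 fits by DESeq2 past the threshold). At the second sampling it had 63, 654 and 9 counts in drought and 67, 19 and 16 in control leaves, so the high level was found again in 1 library. Counts of this contig were fractional in 2 of the 6 libraries of the first sampling.

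contig-2202000017 (277 bases) ranked 2 by mean TPM over the 6 libraries. It had 10868, 12745 and 31155 TPM in the drought libraries and 884, 1858 and 1093 TPM in the controls, on average 14.3 times as much. Drought replicate 3 stood far above the other drought libraries, and all 3 above the controls. The log2 fold change of 3.99 (SE 0.85) had an edgeR adjusted p of 0.242 (2.3e-05 to 0.64 over the alternatives, past the threshold only in the 2 fits by DESeq2). At the second sampling it had 7592, 14268 and 1741 TPM in drought and 953, 2756 and 737 TPM in control leaves, where drought replicate 3 again lay among the controls. Its counts were fractional in all 6 libraries, so reads were shared with other contigs.

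contig-820000022 (1810 bases) had the widest gap downward. It had 0 counts in each of the 3 drought libraries and 459, 294 and 430 in the controls, 8.84 ± 2.28 TPM (SD, n = 3). With drought set to 3 counts over the group, it was at least 390-fold lower in drought leaves. edgeR gave an adjusted p of 0.083, and over the alternatives it ran from 1.7e-12 to 0.39, past the threshold with DESeq2 and with limma-trend. At the second sampling all libraries had 0 counts, except 1 count in control replicate 1. Its reads were thus found almost only in the controls of the first sampling, and its counts were whole numbers in all 6 libraries. Why they were missing from the second-sampling controls was not tested.

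contig-404000012 (1188 bases) was the most abundant contig apart lower past 2-fold. It had 1708, 1020 and 431 TPM in the drought libraries and 6056, 2173 and 4843 TPM in the controls, with control replicate 2 the lowest of its group. The controls had on average 4.14 times as much. The gap between the groups was 1.10 times, the log2 fold change -1.99 (SE 1.15) and the edgeR adjusted p 0.479 (0.22 to 0.79 over the alternatives), so it did not pass the test although the groups did not overlap. At the second sampling it had 356, 617 and 10587 TPM in drought and 6571, 1865 and 2978 TPM in control leaves. Drought replicate 3 there was the highest of all 12 libraries. Counts of this contig were fractional in all 6 libraries of the first sampling, so its reads were shared with other contigs.

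**Figure D5:**
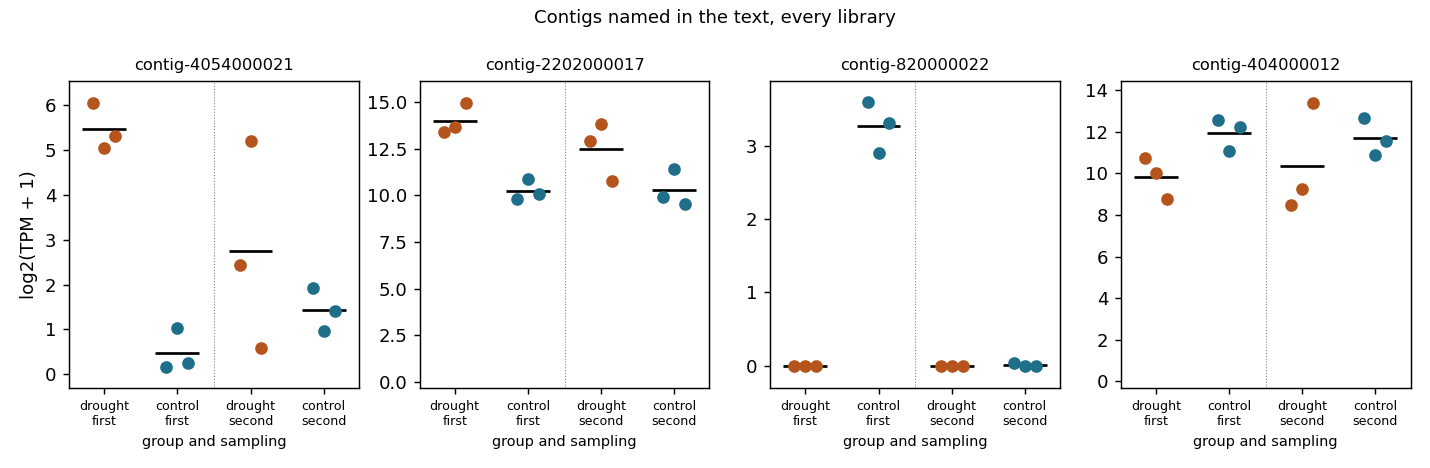
Levels of the contigs described singly in each of the 12 libraries, as log2(TPM + 1). Points are libraries (drought in brown, control in blue, replicates 1 to 3 from left to right), bars are group means of the log values, and the dotted line divides the samplings. The groups of the first sampling do not overlap in any panel, and drought replicate 3 of the second sampling lies apart from replicates 1 and 2 for contig-404000012.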

How the data were processed

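Leaf RNA of *Q. ilex* was sequenced with a strand-specific mRNA kit. The submitters' processing notes name cutadapt 1.9 and RSEM. Assembler, aligner and version of RSEM were not given in the sources used here. Estimated counts deposited by the authors are unnormalized reads per contig as RSEM assigned them. The authors also deposited TPM, scaled by contig length and to a fixed sum per library. Deposited FPKM values were not used.

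Estimated counts were rounded and fitted with edgeR 4.0.16 (R 4.3.3): TMM factors, the filterByExpr filter (33602 contigs left), 1 quasi-likelihood fit of the 4 groups over 12 libraries, Benjamini-Hochberg adjustment over all contigs tested, threshold 0.05. The SE is the log2 fold change over the square root of F. Contigs apart were counted on TMM-scaled CPM. Contig length and effective length were taken from the deposited files. The length measures per library, their alternatives and the fits without 2 second-sampling libraries were chosen after the values were seen. Contigs, classes and tests were chosen with earlier results of these data known. Since contigs have no names, at most 2 higher and 2 lower ones were named, as the text states. As alternatives, the counts were fitted with DESeq2 1.42.0 and the TPM with limma-trend 3.58.1 (pseudocounts 1 and 0.1), and the size factors and filters were varied. Further ones were a fit of 6 libraries, the replicate block and leaving out each library. The fit was tested on simulated data. Pairs of replicates differed by a chi-square of at least 66.1 per degree of freedom, more than counting error alone gives. Each library was therefore counted as a replicate of its own. This value cannot tell separate seedlings from separate preparations of the same material.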

Additional observations from a re-analysis of the deposited data

How the results depend on the processing

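Tool, filter and single libraries all moved the counts. The cause was not tested. Against 0 contigs called with the settings used above, DESeq2 gave 1312 (1929 without control replicate 2, chosen after seeing the data) and limma-trend 25 and 27 on log2(TPM + 1) and log2(TPM + 0.1). Leaving out a first-sampling library gave 0 to 11. With the replicate number as a block, edgeR called 0 contigs both in the fit of 6 and in that of 12 libraries. No label ties a replicate number to a shared batch, and the block was not part of the design used. The deviations of drought and control libraries with the same number correlated with -0.0002, 0.206 and 0.0557, and 3 of 6 libraries correlated best with their own number.

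Contigs at least 2-fold higher and lower numbered 1859 and 3475 with limma-trend on log2(TPM + 1), 7120 and 10963 without a low-count filter, and 1994 and 2804 with at least 10 counts in each of the 6 libraries, against 3954 and 5892. Leaving out a library gave 3641 to 6256 higher and 5338 to 6967 lower, and DESeq2 without control replicate 2 gave 6111 higher. Contigs apart by a gap of at least 1.5 times numbered 766 higher (2.28% of those tested) and 744 lower (2.21%). Without a limit on the gap, leaving out a library gave 4683 to 6753 and 4814 to 6743. The difference between samplings gave 428 with DESeq2 and 0 to 5 without single libraries (5 without control replicate 2 of the second sampling). The second-sampling median of contigs apart higher ran from 0.48 to 0.88 and of those apart lower from -0.97 to -0.33 without single libraries, and the lower list had -0.19 in TPM. Fold changes of the 4 named contigs kept their direction. With at least 10 counts in each library, contig-4054000021 and contig-820000022 were not among those tested. The common biological coefficient of variation over the 12 libraries was 0.685.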
